A study of Mus musculus with 64 samples.

Results

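The comparison described here sets the livers of 6 mice in which Myc was inactivated throughout the body (MycKO, called KO) against those of 6 wild-type mice (WT), all aged 5 months, and takes 12 of the 64 RNA sequencing libraries of the series. The libraries were selected by their labels: liver, 5 months, and genotype. The comparison and the gene lists were chosen with earlier results of these data known. KO mice came from a cross of a B6.129 line that carries the allele Gt(ROSA)26Sortm1(cre/ERT2)Tyj with the line B6.129-B6.129S6-Myctm2Fwa/Mmjax, in which a tamoxifen-activated Cre recombinase expressed from the Rosa26 locus removes a floxed part of Myc in every tissue where Cre becomes active. WT mice were of the strain C57/B6, so genotype cannot be told apart from the strain background and the engineered loci that came with it. Mice of both genotypes are labelled as given 5 daily injections of tamoxifen (75 mg/kg) when weaned, once they had reached 15 g. The livers of 5 KO and 5 WT mice aged 20 months, with the same strain and treatment labels, serve as the comparison at an older age.

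Myc is a transcription factor that binds DNA together with its partner Max, most tightly at the sequence CACGTG, known as the E-box. It is best known for raising the output of ribosomes: it acts on genes for ribosomal RNA synthesis, nucleolar assembly factors, ribosomal proteins, translation factors, and the synthesis of nucleotides and polyamines. In normal adult liver most hepatocytes do not divide and Myc messenger RNA is scarce, and it rises when hepatocytes re-enter the cell cycle after injury. The series title names premature ageing and a lower cancer incidence as the questions behind the deletion.

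Sequencing depth in the 12 libraries lay between 17.1 and 22.2 M reads on genes, and 16080 to 17367 genes had a read. As a check of the tissue label, the 10 hepatocyte markers (Alb, Ttr, Apoa1 and others) were abundant in each library and summed to 130600 to 197976 CPM in KO and 147494 to 253329 CPM in WT libraries. CPM is the deposited read signal of a gene, scaled per library by the authors. Libraries are named by their codes, where K marks KO, W marks WT and the last digits the mouse. The older libraries have codes such as K18L06 and W18L01, while their labels say 20 months, the age used here. The labels give no sex, and 2 of the 6 KO (K5L5116 and K5L5118) and 2 of the 6 WT libraries (W5L5041 and W5L5042) held Xist at 143 CPM or more and no Y-linked transcripts, while the other 8 held Y-linked transcripts. All 20-month libraries held Y-linked transcripts. A further 3 libraries stood apart in metabolic genes: K5L5218, W5L5005 and W5L5277 had between 1112 and 1439 CPM of Car3, a carbonic anhydrase, against 7.94 to 133 CPM in the other 9. They held the lowest levels of Cidec, a lipid droplet protein, at no more than 16.8 CPM against at least 51.7 CPM in the other 9.

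Of 12483 genes tested, 8 were called in KO against WT liver at 5 months, with 5 lower and 3 higher in KO, which is 0.0641% of the genes. A gene is called at an adjusted p under 0.05 in limma, fitted over all 22 liver libraries with 1 mean per group. The 5 lower genes were Myc, Gt(ROSA)26Sor, Bid, Mug2 and Rpl12, and the 3 higher ones were Pvt1, Cd8a and Cxcl14. That number changed with the libraries in the fit: the 12 young libraries fitted alone called 1 gene (Cd8a), and the libraries left after removing those with Xist called 1 gene ID that has no symbol and none of the 8. Leaving out the 3 libraries high in Car3 kept 4 of the 8 (Myc, Gt(ROSA)26Sor, Pvt1 and Cd8a). DESeq2 on the recovered reads called 47 genes (0.377% of the tested genes), 18 higher and 29 lower, among them all 8.

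**Figure D1:**
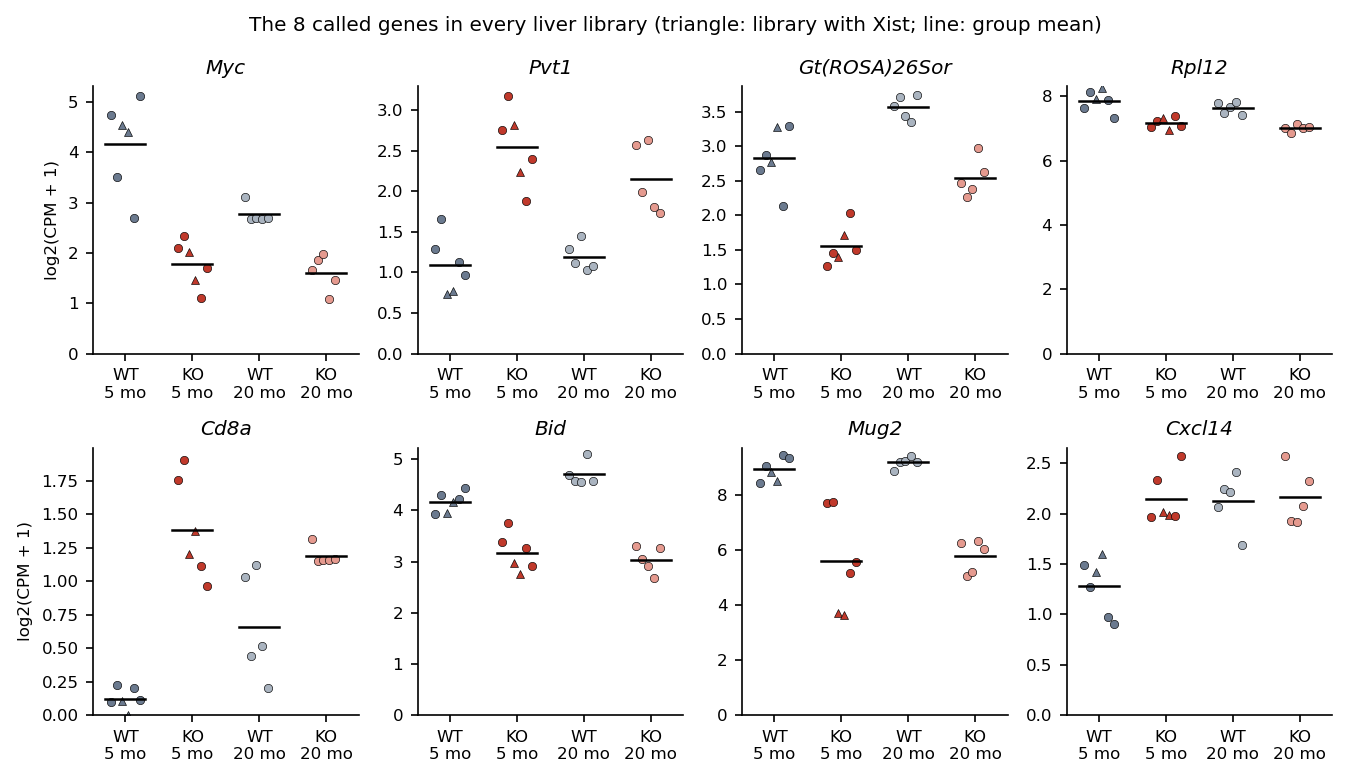
The level of each of the 8 called genes as log2(CPM + 1) in every liver library, by genotype and age, with triangles for libraries that hold Xist and lines for group means. At 5 months the KO points sit clear of the WT points for Myc, Gt(ROSA)26Sor, Bid, Mug2, Pvt1, Cd8a and Cxcl14, while those of Rpl12 overlap.

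Myc itself was examined first. KO libraries held between 1.16 and 4.04 CPM of Myc with a median of 2.65, and WT libraries between 5.46 and 33.7 CPM with a median of 21.2. Every KO library lay below every WT library. The means were 2.59 ± 1.06 CPM in KO and 19.6 ± 10.3 CPM in WT (SD, 6 libraries each), which is a log2 fold change of -2.38 (SE 0.302, limma adjusted p = 0.000907) of log2(CPM + 1), a scale on which changes of weakly expressed genes come out too small. A two-sided exact permutation test of the same difference gave p = 0.00216, the smallest that 6 against 6 libraries allow. The table gives 1 value per gene, so reads from the deleted and the retained parts of Myc (chr15:61985341-61990361, GRCm38.p6) cannot be separated. The lowest Myc level of each group belonged to a library high in Car3: K5L5218 among the KO and W5L5277 among the WT libraries.

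Among the other 10 tested genes of the Myc and Max network, which comprises Myc's dimer partner, its paralogues and the repressors that compete for Max, none was called. Mycl, a paralogue of Myc, had a similar mean level in both groups, 34.9 ± 19.0 CPM in KO and 30.6 ± 19.5 CPM in WT (log2 fold change 0.20, SE 0.404). Max, the partner of all of them, was at 23.7 ± 3.44 CPM in KO and 24.4 ± 8.26 CPM in WT.

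Pvt1 is a long non-coding RNA gene that starts 0.0526 Mb from the start of Myc (chr15:62037986-62260215). KO libraries held 2.67 to 8.01 CPM with a median of 4.99, and WT libraries 0.657 to 2.17 CPM with a median of 1.07. The groups did not overlap, and the log2 fold change was 1.45 (SE 0.211, limma adjusted p = 0.00212). At 20 months Pvt1 differed in the same direction, by 0.95, with an adjusted p of 0.333 in limma and no overlap between the groups. The transcript Gt(ROSA)26Sor, made from the locus that carries Cre in the KO mice (chr6:113067428-113077244), ranged from 1.41 to 3.08 CPM in KO and from 3.4 to 8.74 CPM in WT, with medians of 1.78 and 6.08. It was lower in all 6 KO than in all 6 WT libraries (log2 fold change -1.27, SE 0.178, limma adjusted p = 0.00143). At 20 months Gt(ROSA)26Sor differed by -1.03 (limma adjusted p = 0.079), again without overlap between the groups.

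Bid encodes a BH3-only protein that carries death receptor signals to mitochondria (chr6:120893119-120917062). Its level ran from 5.79 to 12.5 CPM in KO, with a median of 7.72, and from 14.2 to 20.7 CPM in WT, with a median of 17.4. No library of one group reached the range of the other (log2 fold change -0.996, SE 0.158, limma adjusted p = 0.00585). None of the other 15 tested genes of the Bcl2 family, which sets the threshold of mitochondrial cell death, was called or had an unadjusted p under 0.05.

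Mug2 encodes a murinoglobulin, a protease inhibitor of blood plasma secreted by hepatocytes (chr6:122006729-122085968). In the KO libraries it held 11.5 and 12.2 CPM in the 2 mice with Xist, 34.4 and 45.7 CPM in K5L5218 and K5L5248, and 204.5 and 214 CPM in K5L4284 and K5L4285. WT libraries held 344 to 686 CPM with a median of 488, all above the highest KO library. The log2 fold change was -3.34 (SE 0.537, limma adjusted p = 0.00585). Its neighbour Mug1, a close relative in sequence, had similar means, 6700 ± 3795 CPM in KO and 7197 ± 4227 CPM in WT. Its log2 fold change of -0.13 turned positive in 4 of the alternatives tried, so it carries no direction. In edgeR on the recovered reads Mug2 missed the threshold, with a log2 fold change of -2.54 (adjusted p = 0.142). How reads shared by Mug1 and Mug2 were assigned is not stated, so the value of Mug2 is uncertain.

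Cxcl14, a chemokine, was higher in every KO library, at 2.9 to 4.95 CPM with a median of 3, than in any WT library, at 0.874 to 2.03 CPM with a median of 1.55 (log2 fold change 0.87, SE 0.163, limma adjusted p = 0.0383). Its call was lost with sex as a covariate (adjusted p = 0.0518 in limma) and held in 3 of the 12 fits that leave out 1 library. Rpl12, a protein of the large ribosomal subunit, was called on a small shift: KO libraries held 123 to 165 CPM with a median of 142 and WT libraries 159 to 304 CPM with a median of 238. Of the 6 KO libraries 4 lay below every WT library (log2 fold change -0.69, SE 0.129, limma adjusted p = 0.0383), and this call too held in 3 of the 12 fits.

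Cd8a, the alpha chain of the co-receptor of cytotoxic T cells, was close to absent from WT liver. WT libraries held between 0 and 2 reads each and 7 reads in all, and KO libraries held 11 to 38 reads each and 149 in all. In CPM the KO libraries lay between 0.955 and 2.74 with a median of 1.44 and the WT libraries between 0 and 0.167 with a median of 0.0762. The groups were clear of each other (log2 fold change 1.26, SE 0.168, limma adjusted p = 0.000988). Cd8a passed the expression filter through its KO libraries alone, as did Gzmb, the protease granzyme B of cytotoxic granules, so both had to differ to be tested at all. With TMM scaling, or with a common total per library, Cd8a fell below that filter and was not tested. Gzmb ranged from 1.23 to 2.53 CPM in KO and from 0.0722 to 0.812 CPM in WT and missed the threshold (log2 fold change 0.97, SE 0.188, limma adjusted p = 0.0503).

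The marker list of T cells and natural killer cells was therefore read over all of its 15 genes and not over the 4 that were tested. Of the 14 markers with a read, 13 had a higher median in KO than in WT libraries, and 3 did not overlap between the groups: Cd8a, Gzmb and Cd3g, a chain of the T cell receptor complex, at 0.694 to 1.44 CPM in KO and 0.0722 to 0.591 CPM in WT. Over all tested genes 0.184% had no such overlap, which is not a matched background for these 3 markers. Cd3g itself was too low to be tested, and Cd8a and Gzmb were tested through their KO libraries alone. The sum of the 15 markers was 9.55 to 19.1 CPM in KO and 4.33 to 7.83 CPM in WT libraries. Without Cd8a, Cd8b1 and Gzmb the remaining 12 markers summed to 6.94 to 13.4 CPM in KO and 3.87 to 7.16 CPM in WT, so the ranges then overlapped. Cd8b1, the beta chain that pairs with Cd8a, had 0.26 to 1.73 CPM in KO and 0 to 0.289 CPM in WT. Cd4, the co-receptor of helper T cells, went the other way within wide ranges, with 0.795 to 1.39 CPM in KO against 0.529 to 2.75 CPM in WT. Trac, the constant region of the T cell receptor alpha chain, was listed at 0 in all 12 libraries. In bulk tissue, more cells of a type and more RNA per cell cannot be told apart.

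Genes of antigen presentation on MHC class I molecules lay higher in KO liver. MHC class I molecules, made of a heavy chain and beta-2 microglobulin, carry peptides cut by the immunoproteasome and brought in by the Tap transporter to the cell surface, where CD8 T cells read them. Of the 16 genes listed, 14 had a positive fold change and 11 an unadjusted p under 0.05, all higher in KO, while none was called by limma. The share of all tested genes that were higher in KO at that unadjusted p was 4.02%, 2.98% were lower, and 7.0% in either direction. The median log2 fold change of the list was 0.45, beside 0.01 for all tested genes, and it ranged from 0.39 to 0.54 over the 12 fits without 1 library. Without the libraries with Xist the median was 0.65 with 12 genes at an unadjusted p under 0.05. The summed level of the list overlapped between the groups, at 7918 to 14924 CPM in KO and 6789 to 10878 CPM in WT. Only K5L4284 and K5L4285 exceeded every WT library in that sum.

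The heavy chain gene H2-Q4 had the smallest p of the list. KO libraries held 53.7 to 106 CPM with a median of 71.6 and WT libraries 34.4 to 56 CPM with a median of 43.8. Of the KO libraries, 4 exceeded every WT library (log2 fold change 0.72, SE 0.149, limma adjusted p = 0.0837). The related H2-Q6 averaged 43.2 ± 18.8 CPM in KO against 20.0 ± 6.04 CPM in WT, and H2-Q7 160 ± 67.9 and 80.6 ± 19.0 CPM. The abundant classical heavy chains differed by less: H2-K1 averaged 3029 ± 941 CPM in KO against 2235 ± 545 CPM in WT, and H2-D1 1553 ± 464 and 1013 ± 222 CPM. The H2-Q genes are near copies of each other, so reads may be divided among them in ways the table does not show, and their separate values are uncertain.

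The processing machinery showed the same sign. Psmb9, a catalytic subunit of the immunoproteasome, ranged from 12.7 to 25.8 CPM in KO and from 7.81 to 14.9 CPM in WT (log2 fold change 0.86, SE 0.187, limma adjusted p = 0.118). Its partner Psmb8 averaged 41.7 ± 13.6 CPM in KO against 24.6 ± 8.58 CPM in WT. Tap1, a subunit of the peptide transporter, held 34.3 to 69.5 CPM in KO and 25.3 to 36.2 CPM in WT, and 5 of the 6 KO libraries exceeded every WT library. B2m, the shared light chain, differed less, with a log2 fold change of 0.25 (SE 0.173). In DESeq2 5 genes of the list passed the threshold, all higher: H2-Q4 (adjusted p = 0.00346), H2-Q6 (adjusted p = 0.00609), Psmb9 (adjusted p = 0.0102), H2-Q7 (adjusted p = 0.0108) and Tap1 (adjusted p = 0.0477).

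The wider interferon response, a list of 49 antiviral and guanylate-binding genes, had a median log2 fold change of 0.19, with 39 positive members and 9 higher at an unadjusted p under 0.05, none of them called. Leaving out 1 library moved that 9 between 2 and 10. Gbp3, a guanylate-binding protein induced by interferon gamma, averaged 7.85 ± 1.45 CPM in KO against 4.92 ± 1.83 CPM in WT. Ddx60, an antiviral helicase, averaged 4.25 ± 1.31 and 2.64 ± 1.3 CPM. Ifit1, a classical target of type I interferon, did not share this pattern, at 8.1 ± 5.86 CPM in KO and 7.83 ± 3.51 CPM in WT. The summed level of the list overlapped between the groups, at 1189 to 2224 CPM in KO and 861 to 1605 CPM in WT.

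Markers of other immune and supporting cells were measured beside these genes, and their part in the differences was not tested. The 14 Kupffer cell and macrophage markers summed to 639 to 1025 CPM in KO and 325 to 921 CPM in WT. The medians of that sum were close, 754 CPM in KO and 748 CPM in WT. Of the 14 markers 11 had a higher median in KO, and none of the 13 tested had an unadjusted p under 0.05. Csf1r, the receptor that keeps macrophages alive, was at 51.9 to 116 CPM in KO and 35.7 to 90.6 CPM in WT. Of the 8 neutrophil markers 5 had a higher median in KO, with S100a9, a calcium-binding protein of granulocytes, at 5.04 ± 2.72 CPM in KO and 2.77 ± 0.654 CPM in WT. Among 10 endothelial markers 9 had a higher median in KO, including Fcgr2b, an Fc receptor of the liver sinusoids, at 44.2 ± 8.94 CPM in KO and 30.8 ± 4.14 CPM in WT. Other lists had few markers with a higher median in KO. These were 2 of the 7 B cell and plasma cell markers with a read and 2 of 8 cholangiocyte markers. By fold change 2 of the 4 tested B cell and plasma cell markers were positive and 2 negative, with a median of 0.15. Of 10 stellate cell and fibroblast markers 8 had a higher median in KO. By fold change 6 of them were positive and 4 negative, with a median of 0.05. Lrat, the enzyme with which stellate cells store vitamin A, averaged 16.6 ± 2.04 CPM in KO against 10.9 ± 3.2 CPM in WT, while the collagen gene Col1a1 had medians of 8.07 CPM in KO and 13.1 CPM in WT. None of these genes was called by limma.

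**Figure D2:**
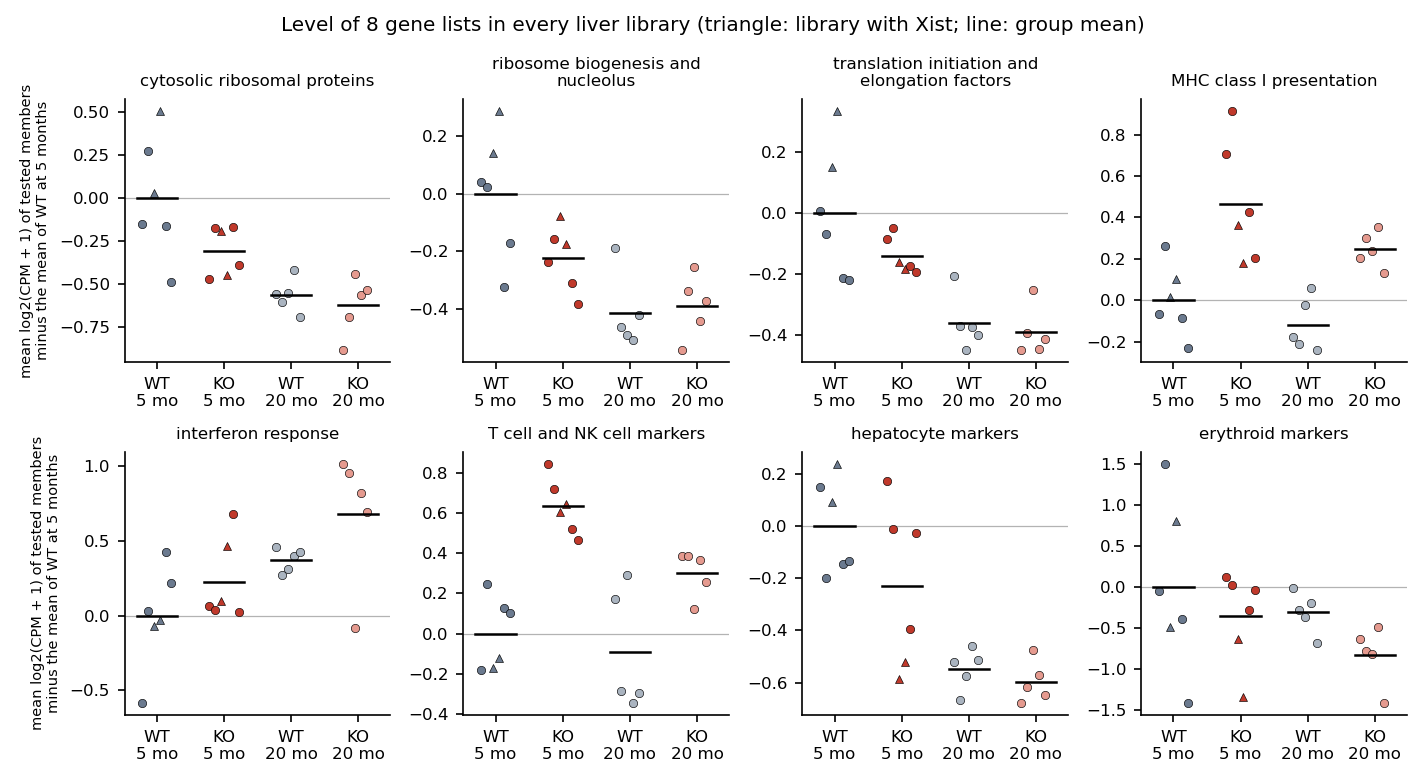
The mean log2(CPM + 1) of the tested members of 8 lists in every liver library, set against the WT mean at 5 months, with triangles for libraries that hold Xist and lines for group means. At 5 months the T cell and natural killer cell list separates the genotypes, though 2 of its 4 tested members passed the filter through KO libraries alone, while the ribosomal protein levels of KO libraries lie within the WT range.

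Ribosomal proteins, the classical output of Myc, lay lower in KO liver at 5 months. Of 78 cytosolic ribosomal protein genes 76 had a negative fold change, 44 had an unadjusted p under 0.05, all lower in KO, and Rpl12 was the 1 called. The median log2 fold change was -0.30. Rps26, a small subunit protein, ranged from 147 to 204 CPM in KO and from 193 to 338 CPM in WT, and 5 of the 6 KO libraries lay under the whole WT range (log2 fold change -0.55, SE 0.114, limma adjusted p = 0.0837). Rpl4, a large subunit protein, ranged from 524 to 598 CPM in KO and from 599 to 912 CPM in WT, so its groups did not overlap (log2 fold change -0.37, SE 0.0936, limma adjusted p = 0.217). Rpsa, the laminin receptor and small subunit protein, averaged 482 ± 50.9 CPM in KO against 707 ± 167 CPM in WT. DESeq2 called 11 genes of the list, all lower. Ribosomal protein genes have many processed pseudogenes, so reads shared with those copies make single values uncertain.

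The ribosomal protein level varied more among WT than among KO libraries, and 2 WT libraries carried much of the difference. The summed signal of the 78 genes was 18262 to 22462 CPM in the 6 KO libraries. In WT it was 36158 CPM in W5L5042, 30126 in W5L5005, 25762 in W5L5041, 22421 to 22698 in W5L5004 and W5L5277, and 18041 in W5L5299, which lay below every KO library. Leaving out W5L5042 lowered the number of members with an unadjusted p under 0.05 from 44 to 25, and leaving out W5L5299 brought it to 70. Without W5L5005 it was 29. The median kept its sign, between -0.40 and -0.21, over the 12 fits. Without the libraries with Xist the median was -0.18 and 14 members had such a p.

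Erythroid markers, which report red blood cell precursors and residual blood, moved along the same libraries. The 5 tested erythroid genes had a median log2 fold change of -0.38, which was -0.09 without W5L5005, -0.76 without W5L5299 and 0.042 without the libraries with Xist. The sum of the whole list was 480 to 1243 CPM in KO and 390 to 3184 CPM in WT, and W5L5005 and W5L5042 were the highest and W5L5299 the lowest of the WT libraries. The part of this in the ribosomal protein values was not tested.

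**Figure D3:**
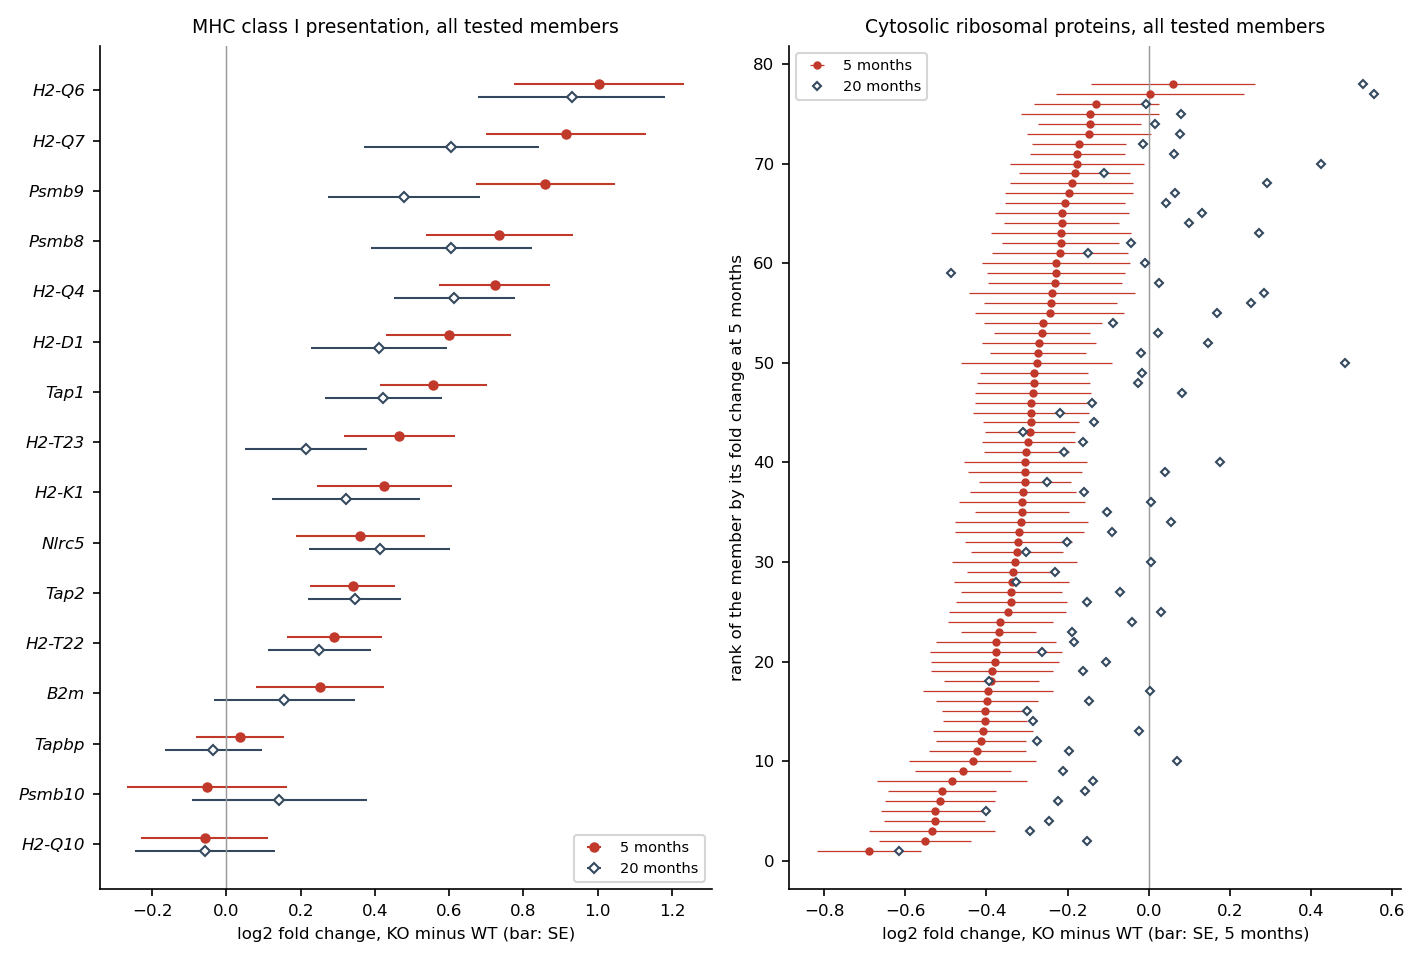
Log2 fold changes of KO against WT liver at 5 and 20 months for each member of the MHC class I list (left, with the gene names) and of the cytosolic ribosomal protein list (right, ordered by fold change at 5 months), with bars for the SE. At both ages 14 of 16 MHC class I genes lie right of 0, while 76 of the 78 ribosomal protein genes lie left of 0 at 5 months.

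Nucleolar and ribosome assembly genes followed with a smaller median. Of 61 genes 56 had a negative fold change, 20 an unadjusted p under 0.05, all lower, and none was called; the median was -0.23 and ranged from -0.29 to -0.18 over the fits without 1 library. The number of 20 was 13 without W5L5042 and 27 without W5L5277, and without the libraries with Xist it was 11 lower and 1 higher. Nop2, a methyltransferase of 28S ribosomal RNA, held 21.7 to 32.1 CPM in KO and 26.6 to 54.7 CPM in WT, and 5 of the 6 KO libraries lay under the whole WT range (log2 fold change -0.52, SE 0.142, limma adjusted p = 0.269). Nop2 starts 12.1 Mb from Gt(ROSA)26Sor on the same chromosome, so loss of Myc cannot be told apart from the engineered locus and strain variants near it. Nop56, a core protein of the box C/D particles that methylate ribosomal RNA, averaged 21.1 ± 2.26 CPM in KO against 30.6 ± 7.87 CPM in WT. Gnl3, known as nucleostemin, was at 20.8 to 45.6 CPM in KO and 35.2 to 46.9 CPM in WT, where K5L5218 alone fell within the WT range. Npm1, the abundant nucleolar chaperone nucleophosmin, averaged 152 ± 16.3 CPM in KO against 193 ± 36.5 CPM in WT.

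Translation factors and mitochondrial ribosomal proteins had medians closer to 0. Of 39 initiation and elongation factors 33 had a negative fold change and 7 an unadjusted p under 0.05, all lower, with a median of -0.14, which was -0.04 with 2 lower and 1 higher without the libraries with Xist. Eef1b2, a nucleotide exchange subunit of elongation factor 1, averaged 163 ± 16.5 CPM in KO against 234 ± 55.7 CPM in WT (log2 fold change -0.49, SE 0.119, limma adjusted p = 0.207; adjusted p = 0.0102 in DESeq2). Eif4a1, the helicase of the cap-binding complex, averaged 372 ± 33.4 and 473 ± 83.2 CPM. Of 77 mitochondrial ribosomal proteins 68 had a negative fold change, with a median of -0.09, and 4 had such a p, all lower (5.19% of them, beside 2.98% of all tested genes). That median was 0.037 without the libraries with Xist, so it carries no direction, and the number with such a p lay between 1 and 18 (without K5L5218) over the fits without 1 library. Among 20 aminoacyl-tRNA synthetases, which charge transfer RNAs, 1 member had such a p and the median was -0.09.

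The biosynthetic enzymes tied to Myc moved little. Polyamine and one-carbon genes had a median log2 fold change of -0.17, with 4 of 24 lower at an unadjusted p under 0.05. That number was 0 without the libraries with Xist and lay between 1 (without W5L5005) and 6 (without W5L5004) over the fits without 1 library. Srm, which makes spermidine, averaged 25.1 ± 5.41 CPM in KO against 36.6 ± 13.7 CPM in WT, whereas Odc1, the rate-limiting enzyme of the pathway and a textbook Myc target, was at 126 ± 27.1 and 133 ± 33.5 CPM. In nucleotide synthesis 2 of 28 genes had such a p, Atic and Impdh2, both lower in KO. That is 7.14% of the list, beside 7.0% of all tested genes, and 1 gene remained without the libraries with Xist. Of 31 cell cycle and DNA replication genes none had such a p, with a median of 0.02. Ccnd1, a cyclin of the G1 phase, ranged from 16.3 to 82.9 CPM in KO and from 10.9 to 78.8 CPM in WT. Cdkn1a, the p53-induced inhibitor p21, ranged from 5.74 to 339 CPM and from 7.61 to 352 CPM, a spread within each group that leaves a difference undetectable at this sample size. Of 20 p53 targets 2 (10%, beside 7.0% of all tested genes) had an unadjusted p under 0.05, Sesn2 and Plk2, both higher in KO. By fold change 9 of the 20 were positive and 11 negative, with a median of -0.02.

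**Figure D4:**
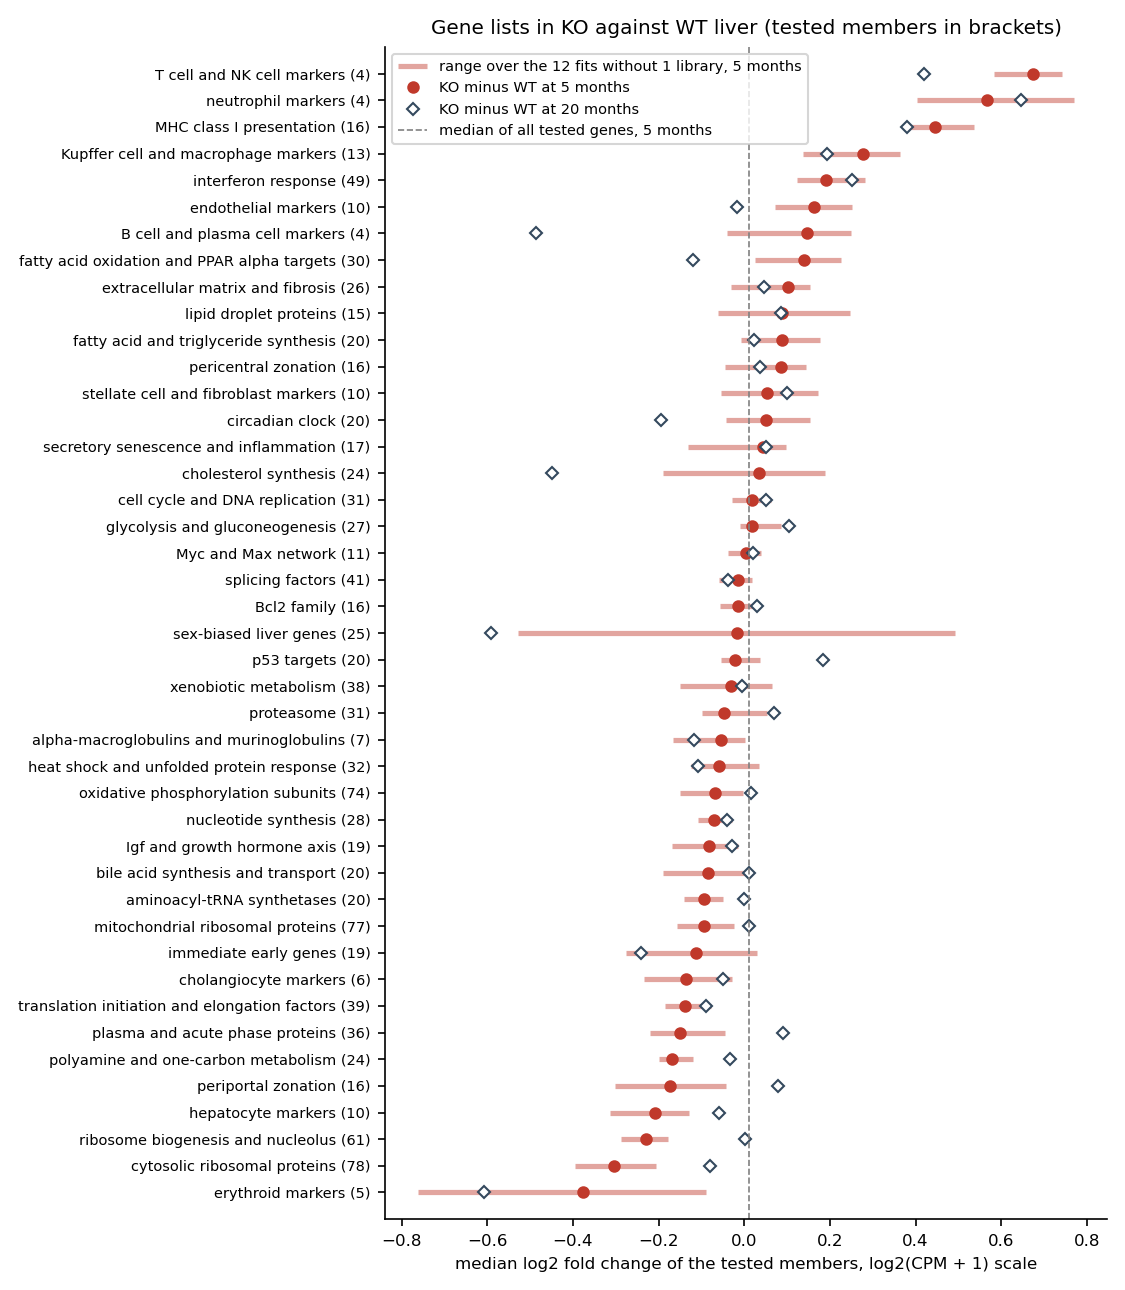
The median log2 fold change of each list with at least 4 tested members at 5 months, with a bar for its range over the 12 fits without 1 library, beside the median at 20 months and a dashed line for all tested genes. MHC class I presentation (0.45) lies at the high end of the process lists at 5 months and cytosolic ribosomal proteins (-0.30) at the low end.

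Liver metabolism differed little at this sample size. None of the 74 nuclear genes of oxidative phosphorylation had an unadjusted p under 0.05 (median -0.07), nor did any of 38 xenobiotic enzymes, 16 pericentral zonation genes or 26 extracellular matrix genes. Of 30 genes of fatty acid oxidation 1 had such a p, Pex11a, a peroxisome division factor, at 494 ± 201 CPM in KO and 309 ± 73.2 CPM in WT. Elovl6, which lengthens fatty acids, averaged 60.6 ± 19.7 and 39.4 ± 18 CPM. On the periportal side, Gls2, the liver glutaminase, averaged 454 ± 78.7 CPM in KO against 614 ± 123 CPM in WT, and Sds, the serine dehydratase of gluconeogenesis, 317 ± 231 and 460 ± 130 CPM. Hamp, which encodes the iron hormone hepcidin, was at 573 to 2159 CPM in KO and 1913 to 2421 CPM in WT, with 4 KO libraries below every WT library. Of the 10 hepatocyte markers 9 had a negative fold change, with a median of -0.21, which was -0.02 without the libraries with Xist, and 1 of them had an unadjusted p under 0.05. That gene, Hnf4a, a master regulator of hepatocyte identity, averaged 998 ± 223 CPM in KO against 1256 ± 220 CPM in WT. Noct, which encodes the rhythmic phosphatase nocturnin, was at 0.694 to 11.5 CPM in KO and 9.7 to 37.8 CPM in WT, with 5 KO libraries below every WT library (log2 fold change -1.77, SE 0.434, limma adjusted p = 0.209). None of these genes was called by limma.

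Over all tested genes, 502 were higher and 372 lower in KO at an unadjusted p under 0.05, 874 in all, and 23 (0.184%) had no overlap between the 6 KO and 6 WT libraries, 16 higher and 7 lower. That split depends on the scaling. With the values rescaled to a common total per library 572 were higher and 178 lower, and the median of all genes moved to 0.06, while TMM scaling gave 439 higher and 420 lower and a median of 0.00. After rescaling to a common total the ribosomal protein median was -0.25 with 34 members lower and the ribosome assembly median -0.17 with 10 members lower at an unadjusted p under 0.05.

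Each age has its own control mice. At 20 months the same fit called 2 genes (0.016%), Bid and Mug2, both lower in KO as at 5 months. At an unadjusted p under 0.05, 3.89% of the genes were higher and 1.77% lower in KO at that age. Bid differed by -1.67 on the log2 scale at 20 months (limma adjusted p = 2.93e-05) and by -0.996 at 5 months, and Mug2 by -3.41 (limma adjusted p = 0.0485) and -3.34. Myc was at 2.11 ± 0.707 CPM in KO and 5.87 ± 0.975 CPM in WT livers at 20 months (SD, n = 5 each), still without overlap, with a log2 fold change of -1.16 (limma adjusted p = 0.558). The difference was wider at 5 months, where WT livers held more Myc, by an interaction of genotype and age of -1.21 on the log2 scale. It had an unadjusted p of 0.0127 in limma, and no gene passed the adjusted threshold for it, while 482 of 12483 had an unadjusted p under 0.05.

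The list medians at the 2 ages are set side by side here, and their difference was not tested. No library at 20 months held Xist, while 4 of the 12 at 5 months did. Without those 4 the 5-month median was -0.18 for ribosomal proteins, -0.17 for ribosome assembly and 0.65 for MHC class I genes. For ribosomal proteins the median was -0.30 at 5 months and -0.08 at 20 months, where 10 members were lower and 4 higher at an unadjusted p under 0.05. Ribosome assembly genes stood at -0.23 and 0.00, and 12 of the 61 had an unadjusted p under 0.05 for the interaction, none of which passed adjustment. At 20 months the summed ribosomal protein signal was 16367 to 19594 CPM in WT and 14241 to 18721 CPM in KO livers. MHC class I genes had medians of 0.45 and 0.38, with 9 of 16 higher at an unadjusted p under 0.05 at 20 months, and the interferon list 0.19 and 0.25. Cd8a was at 1.28 CPM in KO and 0.63 CPM in WT at 20 months, a log2 fold change of 0.53 (limma adjusted p = 0.776). Its groups still did not overlap, at 1.23 to 1.49 CPM in KO and 0.148 to 1.17 CPM in WT. Cxcl14 had a log2 fold change of 0.04 there. Cholesterol synthesis genes had a median of 0.04 at 5 months and -0.45 at 20 months, where 9 of 24 were lower at an unadjusted p under 0.05. The value at 5 months lay between -0.19 (without K5L5218) and 0.19 (without W5L5005) over the fits without 1 library.

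Values of Myc, Pvt1, Gt(ROSA)26Sor and Bid in other tissues of 5-month mice stand beside those of liver. The difference was not tested, since some mice gave more than 1 tissue. Myc had a log2 fold change of -1.52 in adipose tissue (limma adjusted p = 0.0158) and -1.13 in muscle, and -2.38 in liver. Pvt1 had 1.95 in adipose tissue (limma adjusted p = 9.7e-05) and 0.53 in muscle. Gt(ROSA)26Sor had -0.85 in adipose tissue (limma adjusted p = 0.0628) and -0.60 in muscle. Bid had -0.44 in adipose tissue (limma adjusted p = 0.380), short of its liver value, and -0.04 in muscle, where both group means were under 1 CPM. No muscle value of these genes passed the threshold.

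Positions of the called genes were counted and not tested. Chromosome 6, which carries Gt(ROSA)26Sor, held 4 of the 8 called genes. Of these, Gt(ROSA)26Sor is the engineered locus itself, and Cd8a passed the expression filter through its KO libraries alone. The chromosome held 608 of the tested genes, of which 9.54% had an unadjusted p under 0.05. That share lay between 4.26% and 8.01% on the other autosomes and the X chromosome, and the Y and mitochondrial chromosomes had 6 and 2 tested genes, none with such a p. Within 10 Mb of the start of Gt(ROSA)26Sor 19 of 95 tested genes (20%) had such a p, 9 of them higher in KO, and 3 were called: Gt(ROSA)26Sor itself, Bid at 7.83 Mb and Mug2 at 8.94 Mb. Cd8a lies on the same chromosome 41.7 Mb away on the other side. Within 10 Mb of Myc on chromosome 15, 7 of 50 genes (14%) had such a p and Myc and Pvt1 were called. At these distances the inactivation of Myc, the engineered alleles and strain variants of the donor lines carried with them cannot be told apart.

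**Figure D5:**
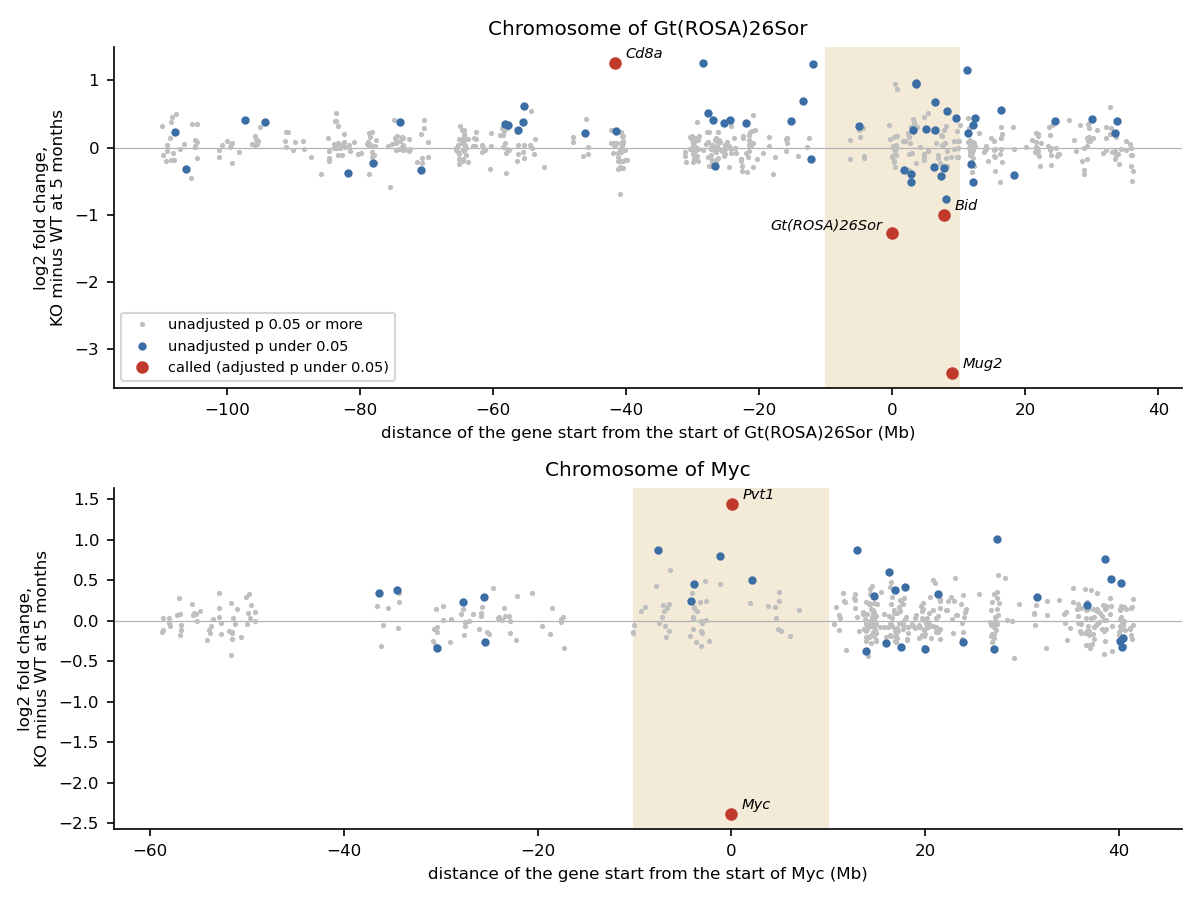
Log2 fold change of KO against WT liver at 5 months by distance from the start of Gt(ROSA)26Sor (top) and of Myc (bottom), in Mb, for each tested gene of the chromosome, coloured by its p, with the window of 10 Mb shaded. Bid and Mug2 lie within the window around Gt(ROSA)26Sor and Pvt1 next to Myc, while Cd8a lies outside.

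Promoter sequences of the listed genes were searched for the E-box and for an interferon motif. Whether Myc or interferon acts on these genes was not tested. The E-box CACGTG, which reads the same on both strands, was found in the 250 bases upstream of 3 of 53 ribosome assembly genes (5.66%), 5 of 57 ribosomal protein genes (8.77%) and 997 of 10000 tested genes that have a promoter in the RefSeq table (9.97%). The interferon motif, GAAA followed by any 2 bases and GAAA again, searched on both strands, was found for 3 of 14 MHC class I genes (21.4%), 21 of 36 interferon response genes (58.3%) and 330 of the 10000 (3.3%). The windows below are from RefSeq, build GRCm38.p6, written 5′ to 3′ on the strand of the gene and ending at the base before its start, with the motif in capitals. Nop2 (chr6:125131633-125131882, + strand) and Rrn3, an initiation factor of RNA polymerase I (chr16:13780449-13780698, + strand), show an E-box, which starts 60 bases before the start of Nop2. H2-T23 (chr17:36032702-36032951, - strand) and H2-T22 (chr17:36042743-36042992, - strand), nonclassical MHC class I heavy chains, show the interferon motif, on either strand, 124 and 191 bases before the start.
Nop2: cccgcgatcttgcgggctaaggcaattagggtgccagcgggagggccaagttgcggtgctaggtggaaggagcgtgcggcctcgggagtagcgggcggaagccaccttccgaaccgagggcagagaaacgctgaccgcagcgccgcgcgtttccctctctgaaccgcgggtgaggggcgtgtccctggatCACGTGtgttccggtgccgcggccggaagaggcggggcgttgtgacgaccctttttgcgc
Rrn3: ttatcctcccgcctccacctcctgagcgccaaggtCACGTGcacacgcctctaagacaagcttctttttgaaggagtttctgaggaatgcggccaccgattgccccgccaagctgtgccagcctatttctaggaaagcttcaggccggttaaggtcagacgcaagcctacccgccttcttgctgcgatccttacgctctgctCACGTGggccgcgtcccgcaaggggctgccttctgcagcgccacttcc
H2-T23: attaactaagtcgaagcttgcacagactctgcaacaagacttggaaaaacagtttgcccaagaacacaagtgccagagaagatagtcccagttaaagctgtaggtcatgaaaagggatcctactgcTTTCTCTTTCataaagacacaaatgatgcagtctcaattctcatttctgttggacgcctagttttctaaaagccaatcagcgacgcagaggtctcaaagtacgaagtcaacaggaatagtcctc
H2-T22: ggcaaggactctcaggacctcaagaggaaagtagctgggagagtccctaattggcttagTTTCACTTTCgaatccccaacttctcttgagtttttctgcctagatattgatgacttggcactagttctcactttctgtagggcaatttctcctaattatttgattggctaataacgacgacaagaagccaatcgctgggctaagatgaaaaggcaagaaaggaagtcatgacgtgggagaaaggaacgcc

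A match is a description of these letters and not a shown binding site. Nop2, with an E-box, had a log2 fold change of -0.52, and Rrn3, with 2 E-boxes, of -0.19 (22 ± 2.11 CPM in KO and 25.4 ± 3.1 CPM in WT). H2-T23 averaged 432 ± 86.0 CPM in KO against 316 ± 81.7 CPM in WT (log2 fold change 0.47, SE 0.15).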

How the data were processed

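Total RNA of liver was sequenced from poly-A selected libraries, per the labels' protocols. The deposited table holds 36333 entries and 64 library columns that the authors made with CLC software, headed CPM per the file headers. The columns do not share a common total, so the deposited values were treated as a read signal scaled per library. The builds are GRCm38.p6 and mm10, per the submitters' processing notes, and the aligner, its settings and the use of strand are not given in the sources used here. In each library 100% of the values came out as whole reads within 0.02, so reads were recovered for count tests. Symbols of 35336 of 36332 gene IDs came from RefSeq, and 996 IDs had none.

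Genes above 1 CPM in at least 5 of the 12 young liver libraries entered limma 3.58.1 under R 4.3.3 as log2(CPM + 1), with 4 group means over 22 liver libraries, trended moderated variance, two-sided, Benjamini-Hochberg over 12483 genes. No covariate was used. P-values measure the spread between mice. The interaction of genotype and age used the same fit. Myc also had an exact permutation test. Alternatives were other pseudocounts, filters and scalings, a sex covariate, library weights, subsets of libraries, and edgeR 4.0.16 and DESeq2 1.42.0 on the recovered reads. The steps were tested on simulated data.

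Genes named are Myc, Pvt1, Gt(ROSA)26Sor, every called gene, genes called with the sex covariate that do not overlap between groups, and up to 3 members of each of 46 lists by smallest p, with further members by value. The comparison, the members and the lists were chosen with earlier results of these data known. Lists are described by counts and medians, without a set test. Replicate pairs differed by more than sampling noise (lowest chi-square per degree of freedom 26.9), so each library is 1 replicate.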

Additional observations from a re-analysis of the deposited data

Results flagged for a closer look

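Of 114 groups of 6 libraries checked over the genes named with a fold change, 4 held a library far from the other 5 by Dixon's test, and chance gives about 1 in 20. Gnl3, the nucleolar GTPase nucleostemin, was at 45.6 CPM in K5L5218, while the other KO libraries held 20.8 to 27 CPM. Eef1g, a subunit of elongation factor 1, was at 398 CPM in W5L5042 and at 225 to 279 CPM in the other WT libraries. Tap1, of the peptide transporter, was at 25.3 CPM in W5L5277 and at 33.0 to 36.2 CPM in the others. Psmb9, of the immunoproteasome, was at 14.9 CPM in W5L5005 and at 7.81 to 9.45 CPM in the others. K5L5218, W5L5005 and W5L5277 are also the 3 libraries high in Car3.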

How the results depend on the processing

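No paired analysis was possible because KO and WT mice share no number in the labels. Of 8 genes called (3 higher, 5 lower), the 12 young libraries alone called 1 (1 higher, 0 lower), the stricter filter of 5 CPM 5 (0 higher), the libraries without Xist 1 (0 higher, 1 lower), and DESeq2 47 (18 higher, 29 lower). The stricter filter removed the 3 higher genes (Pvt1, Cd8a and Cxcl14) from testing, so its 0 higher calls were fixed by the filter. TMM scaling left 1 higher, Pvt1, and did not test Cd8a. Leaving out the 3 libraries high in Car3, an alternative chosen after seeing the data, left 4 (2 lower). Leaving out 1 library gave 6 to 25 calls, 2 to 17 higher and 4 to 8 lower. The 25 came without K5L5218, and 12 without W5L5299. Myc, Pvt1, Bid, Cd8a, Mug2 and Gt(ROSA)26Sor were called in each of these 12 fits, but edgeR lost Mug2 (adjusted p = 0.142). The log2 fold change of Myc lay between -2.67 and -2.19 in them and was -2.20 without the Xist libraries (exact permutation p = 0.0286). Mug1 turned positive without the Xist libraries (0.011), K5L5116 (0.18), K5L5118 (0.03) and W5L5004 (0.10), and ranged from -0.35 to 0.18 over the 12 fits. Of 735 list medians under alternatives, 4 moved by more than the SD between libraries, a wide measure that says little about stability. The mitochondrial ribosomal protein median changed sign within it, from -0.09 to 0.037 without the Xist libraries. The sex covariate could not move the medians, since each genotype had 2 libraries with Xist at 5 months. The interaction of genotype and age had 0 adjusted calls in limma, with the sex covariate (570 genes at an unadjusted p under 0.05), in edgeR (538) and with a pseudocount of 0.1 (479). The cause of these changes was not tested. Depth limits genes near 1 CPM, such as Cd8a, whose WT level rests on 7 reads.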

Other observations

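The 3 young libraries high in Car3 (K5L5218, W5L5005 and W5L5277) also held the lowest levels of Ehhadh, a peroxisomal enzyme of fatty acid oxidation, at 1329 to 2600 CPM against 4015 to 10929 CPM in the other 9. Mycl, the paralogue of Myc, was lowest in the same 3, at 9.23 to 13.9 CPM against 15.7 to 56.7 CPM. All 3 held Y-linked transcripts. These libraries and genes were singled out after their values were seen, and no cause was tested.

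Beyond the genes described above, Rdh9, a retinol dehydrogenase, averaged 122 ± 28.5 CPM in KO against 71.9 ± 14.9 CPM in WT at 5 months, without overlap between the groups. Ces1b, a carboxylesterase, averaged 103 ± 7.93 CPM in KO against 148 ± 19.9 CPM in WT. Wwtr1, the Hippo pathway coactivator TAZ, averaged 32.8 ± 3.41 CPM in KO against 23.3 ± 4.22 CPM in WT. None of these was called by limma, while DESeq2 called Rdh9 (adjusted p = 0.0273) and Ces1b (adjusted p = 0.0467).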
